A study of Homo sapiens with 8 samples.

Results

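The EGR, KLF and IER early response genes examined here are 10 listed human genes: EGR1, EGR2, EGR3, KLF2, KLF4, KLF6, KLF10, IER2, IER3 and DUSP1. Of these, 9 had a probe set annotated to that symbol alone, out of 19774 genes with such a probe set. EGR2 was not analysed here, as no probe set carried its symbol alone in the annotation used. Each gene was represented by its probe set with the highest mean over the arrays, and 8 of the 9 passed the filter on low levels that left 14517 genes for testing. EGR3 did not pass it, with a mean log2 signal of 3.13 against a filter level of 3.21.

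The values came from 8 Affymetrix arrays hybridised with total RNA of 4 human neuroblastoma cell lines, 1 array per line and treatment. The treated group was given 2.5 µM ciclopirox, an iron-chelating antifungal, for 48 h, and the vehicle group was given vehicle for the same 48 h. The lines were SKNAS (SK-N-AS), labelled c-Myc, and NB1691, SKNBE2 (SK-N-BE(2)) and SKNAS/shHIF1a, labelled N-Myc, where SKNAS/shHIF1a is a stable HIF1A knockdown line. Its comparison line is the parent SKNAS, the labels do not say whether it is 1 clone, and a line with a control hairpin was not analysed here. The N-Myc label of SKNAS/shHIF1a goes against its arrays, on which MYCN stood at 5.65 and 5.41 under ciclopirox and vehicle and MYC at 9.23 and 9.86, whereas MYCN was 11.77 to 12.53 in NB1691 and SKNBE2, so lines are compared by origin and not by that label. The parent SKNAS had MYCN at 3.36 and 2.77 and MYC at 9.10 and 10.16 in the same order. The derivative thus also differed from its parent in MYCN.

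All levels are log2 signals, and a difference of 1 between log2 levels is 2-fold. Array medians lay between 3.47 and 3.52, and the number of arrays limits the precision. HIF1A had levels of 11.09 and 11.71 in SKNAS/shHIF1a under ciclopirox and vehicle, against 11.94 and 12.25 in SKNAS, a difference of -0.69 ± 0.21 (SE) that did not pass (limma, adjusted p = 0.257). Of 7 noradrenergic neuroblastoma markers with a probe set, all were above the filter level on every array except SKNAS, where TH, the enzyme that starts catecholamine synthesis, lay at 3.17 and 3.15. Their summed log2 level was 45.8 to 52.6 in the SKNAS-derived lines, against 66.0 to 69.8 in NB1691 and SKNBE2. PTPRC, the leukocyte marker CD45, stood at 6.34 to 11.53 in the SKNAS-derived lines, against 3.03 to 3.29 in NB1691 and SKNBE2, while CORO1A, another leukocyte marker, was 3.66 to 4.59 and 4.54 to 6.28 in the same order. The T cell gene CD3E and the monocyte gene CD14 were at or below 3.35 on all arrays. CD68, also among the leukocyte markers, was highest in NB1691, at 5.38 and 4.31 under ciclopirox and vehicle. It stood at 4.45 and 3.41 in SKNAS, 4.30 and 3.06 in SKNAS/shHIF1a and 2.93 and 3.09 in SKNBE2.

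Early response genes are transcribed within minutes of a growth factor, cytokine or stress signal without new protein synthesis, largely through MAP kinases acting on serum response factor, its ternary complex factors and CREB. EGR proteins are zinc finger factors that bind GC-rich sites and are restrained by the NAB corepressors. KLF proteins are zinc finger factors of CACCC and GC boxes, IER2 and IER3 are small immediate early proteins, and DUSP1 is a phosphatase that switches MAP kinases off again. After a single stimulus these transcripts usually decay quickly, so a measurement after a long exposure records a late or sustained level and not the first wave.

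The signal was higher with ciclopirox for 8 of the 8 tested genes in SKNAS (47.2% of all genes tested) and in SKNAS/shHIF1a (47.2%), for 7 in NB1691 (47.9%) and for 6 in SKNBE2 (48.9%). KLF4 had the largest mean difference, 1.82 ± 0.27 (SE, n = 4 lines), followed by KLF10 at 1.07 ± 0.18, EGR1 at 0.93 ± 0.17 and DUSP1 at 0.85 ± 0.26. None of the 8 tested genes passed the test over all genes (limma with the cell line as a block, 0 at an adjusted p under 0.05), against a background of 0% of 14517 genes. At an unadjusted p under 0.05, 4 of the 8 were higher (EGR1, KLF4, KLF10 and DUSP1) and 0 were lower, against a background of 7.67% of genes higher and 10.2% lower. The median difference was 0.74 over the 8 genes and -0.01 over all genes tested. The labels do not say that arrays came from separate cultures, so these p-values measure the spread between lines only. SKNAS and SKNAS/shHIF1a, counted here as separate lines, are not independent of each other. With the 2 averaged, 3 of the 8 genes were higher at an unadjusted p under 0.05, against 737 of 14517 genes. DUSP1 then had an unadjusted p of 0.0679 (limma).

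**Figure D1:**
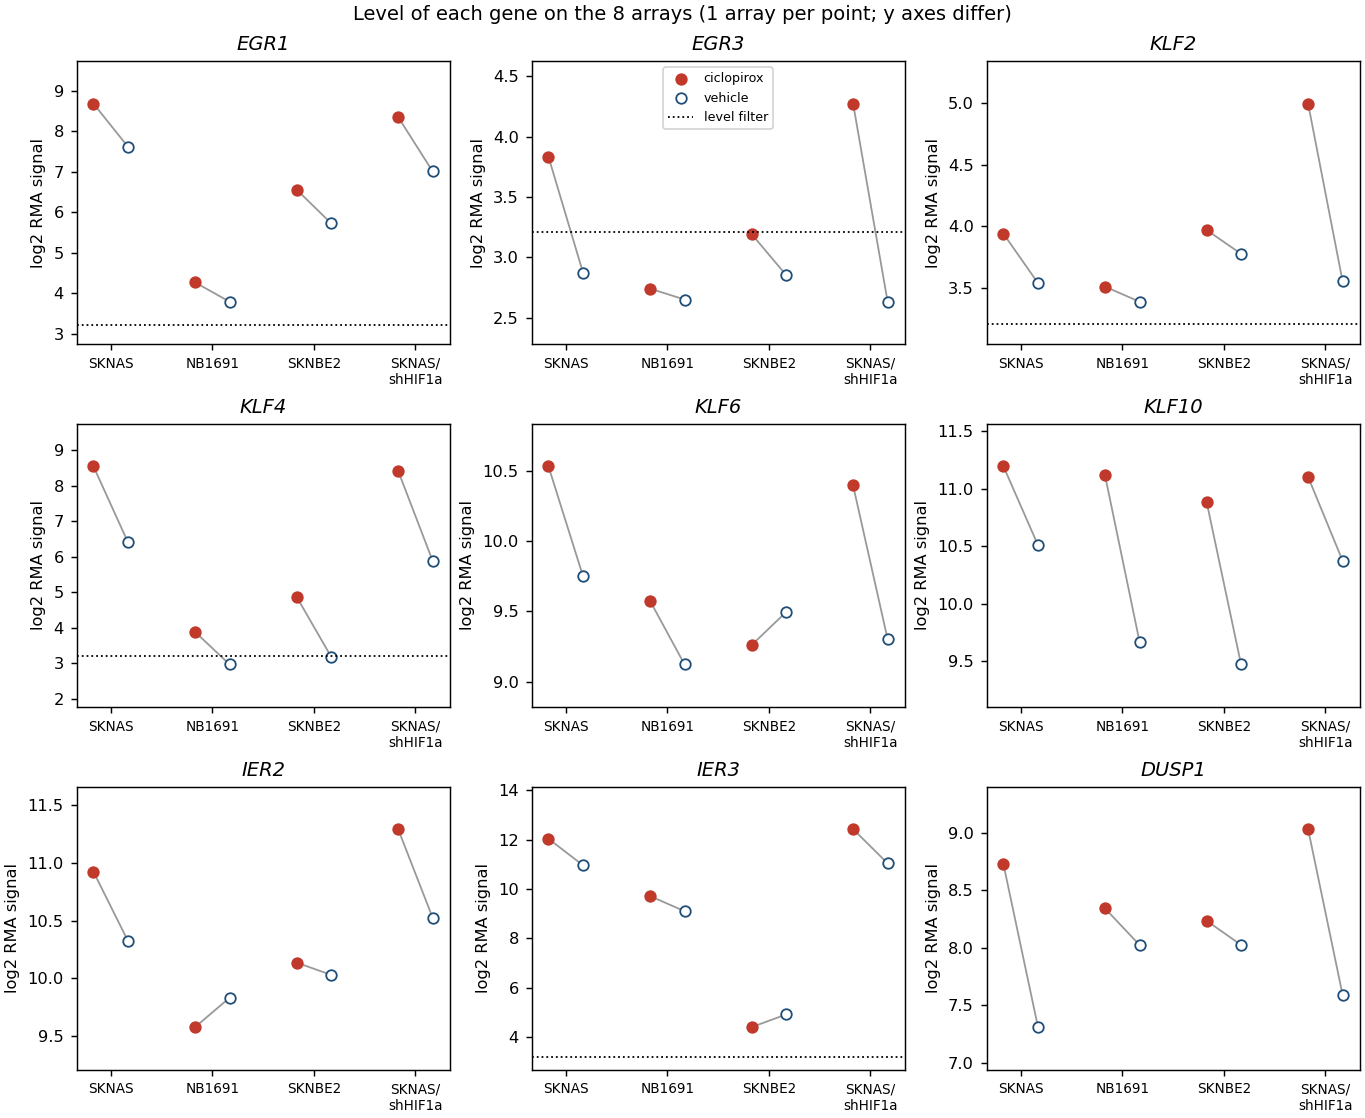
Level of each gene on the 8 arrays, in log2 RMA signal, with the ciclopirox array (filled) left of the vehicle array (open) of each line and a dotted line at the filter level of 3.21 where it falls in range. KLF10 lies between 10.89 and 11.20 in all lines under ciclopirox, while IER3 spans 4.40 to 12.43.

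EGR1, a zinc finger factor induced by growth factors and stress, was higher with ciclopirox in every line. Its levels were 8.69 in SKNAS, 4.27 in NB1691, 6.56 in SKNBE2 and 8.36 in SKNAS/shHIF1a under ciclopirox, against 7.62, 3.79, 5.73 and 7.01 in the same lines under vehicle. The lines differed more from each other than the treatments did, and the groups overlapped widely. Within lines the differences were 1.07 in SKNAS, 0.48 in NB1691, 0.83 in SKNBE2 and 1.35 in SKNAS/shHIF1a, or 2.10-, 1.39-, 1.78- and 2.54-fold. The mean had an unadjusted p of 0.00152 and an adjusted p of 0.14 (limma). Under vehicle the levels ran in the order SKNAS, SKNAS/shHIF1a, SKNBE2, NB1691, with every gap larger than 0.34. That value is the spread of a difference between 2 arrays, taken from the residual SD of the treatment fit. With 1 array per line and treatment it reflects how unevenly the lines responded. A gap beyond it, here and below, is therefore no test of levels between lines. Under ciclopirox SKNAS and SKNAS/shHIF1a differed by less than that spread. Over both treatments their EGR1 difference did not pass (-0.47 ± 0.24, limma, adjusted p = 0.557). The other EGR1 probe sets, with lower signals, gave mean differences of 1.08 and 1.08 and were higher in all 4 lines too.

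EGR1 lies on chromosome 5 at 138465479 to 138469303 (GRCh38.p14). Promoter sequence is shown for EGR1, KLF4 and DUSP1, which had an unadjusted p under 0.05 and an entry in the RefSeq promoter table (GRCh38.p14), where 7 of the 10 genes matched. Each run covers 250 bases before and 50 after the annotated start, 5′ to 3′ on the gene's strand. Capitals mark CArG boxes, the sequence bound by serum response factor, and CRE half-sites, TGACG or its complement CGTCA, the core of the CREB and ATF site.
EGR1, chr5:138465229-138465528, plus strand: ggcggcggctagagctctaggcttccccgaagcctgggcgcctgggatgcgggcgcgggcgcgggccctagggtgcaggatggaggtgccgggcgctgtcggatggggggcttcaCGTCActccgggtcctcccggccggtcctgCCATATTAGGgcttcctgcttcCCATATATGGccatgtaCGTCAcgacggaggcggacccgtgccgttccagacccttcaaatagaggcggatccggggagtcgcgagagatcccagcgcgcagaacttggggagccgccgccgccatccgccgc
The EGR1 window held 2 CArG boxes, whose first bases lay at -105 and -83 from the start, and 2 CRE half-sites at -135 and -66. Of 35116 promoter windows, 1.29% held a CArG box on either strand and 0.0313% held at least 2, while 24.6% held a CRE half-site. A match describes the letters only.

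EGR3, a family member with the zinc fingers of EGR1, was near background on most arrays. It stood at 3.83 in SKNAS, 2.74 in NB1691, 3.19 in SKNBE2 and 4.27 in SKNAS/shHIF1a under ciclopirox, against 2.87, 2.65, 2.85 and 2.63 in the same lines under vehicle. Only the SKNAS and SKNAS/shHIF1a arrays under ciclopirox were above the filter level of 3.21. The differences were 0.96, 0.09, 0.34 and 1.64, and near background a difference understates the change in RNA. In a fit of all genes without the level filter the mean of 0.76 ± 0.27 had an unadjusted p of 0.0307 (limma, adjusted p = 0.274).

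KLF4, a zinc finger factor that restrains proliferation in epithelia and is 1 of the factors used to reprogram cells to pluripotency, had the largest mean difference. Its levels were 8.55 in SKNAS, 3.88 in NB1691, 4.87 in SKNBE2 and 8.42 in SKNAS/shHIF1a under ciclopirox, against 6.40, 2.96, 3.18 and 5.89 under vehicle. All 4 lines were higher with the drug, by 4.41-, 1.89-, 3.23- and 5.80-fold, although NB1691 and SKNBE2 were below the filter level under vehicle, so that their folds may understate the change. Among 14517 genes the mean difference ranked 42 from the top, with an unadjusted p of 0.000509 and an adjusted p of 0.121 (limma). The dimmer KLF4 probe set gave 1.33, -0.02, 0.09 and 1.74 in SKNAS, NB1691, SKNBE2 and SKNAS/shHIF1a, and in NB1691 and SKNBE2 it was below the filter level under both treatments. The higher KLF4 signal in those 2 lines therefore rests on 1 probe set.

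KLF4 lies on chromosome 9 at 107484852 to 107489769 (GRCh38.p14), and its promoter window is shown with the same marks.
KLF4, chr9:107489720-107490019, minus strand: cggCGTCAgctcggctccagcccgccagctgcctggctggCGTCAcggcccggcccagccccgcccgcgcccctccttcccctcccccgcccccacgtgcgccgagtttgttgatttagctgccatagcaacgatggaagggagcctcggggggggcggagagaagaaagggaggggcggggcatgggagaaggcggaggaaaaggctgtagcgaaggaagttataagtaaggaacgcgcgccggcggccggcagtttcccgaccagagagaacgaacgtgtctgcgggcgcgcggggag
It held 0 CArG boxes, 2 CRE half-sites at -247 and -210, and 4 GC boxes, GGGCGG or its complement CCGCCC. Of all windows, 45% hold a GC box at least once and 15.8% at least 3 times. The core ACGTG or its complement CACGT, which is part of the HIF site, matched at 3 positions, 2 of them overlapping. It is held at least once by 21.4% of windows and at least 3 times by 1.98%. The EGR1 window held 1 such core and 0 GC boxes, and the DUSP1 window 2 cores and 4 GC boxes.

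KLF10, known for its early induction by TGF-beta, differed from the other genes in where it was higher. Its levels were 11.20 in SKNAS, 11.12 in NB1691, 10.89 in SKNBE2 and 11.10 in SKNAS/shHIF1a under ciclopirox, against 10.51, 9.67, 9.47 and 10.37 under vehicle. Here the treatment groups did not overlap, as every ciclopirox array was above every vehicle array. KLF10 and DUSP1 were the 2 of 8 genes with that property, which 1.06% of all genes tested had, and 0 of 8 lay wholly lower, against 1.47%. The differences were 0.69, 1.45, 1.41 and 0.73, so that the largest were in NB1691 and SKNBE2 (unadjusted p = 0.00113, adjusted p = 0.132, limma). The lines spread over 0.31 under ciclopirox and over 1.04 under vehicle, and under ciclopirox no neighbouring lines differed by more than the spread of 0.37.

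KLF6, an injury-induced KLF, stood at 10.53 in SKNAS, 9.58 in NB1691, 9.26 in SKNBE2 and 10.40 in SKNAS/shHIF1a under ciclopirox, against 9.75, 9.12, 9.50 and 9.30 under vehicle. It was higher in all lines but SKNBE2, with differences of 0.78, 0.45, -0.24 and 1.10 and a mean of 0.52 ± 0.23 (SE, n = 4 lines). The adjusted p was 0.299 (limma), and the mean was 0.33 without SKNAS/shHIF1a. The 3 further KLF6 probe sets above the filter level gave means of 0.46 to 0.60, with the same negative sign in SKNBE2 (-0.18 to -0.41).

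KLF2, a factor best known from endothelium and quiescent T cells, lay between 3.39 and 4.99 on all arrays. The highest value belonged to SKNAS/shHIF1a under ciclopirox (4.99, against 3.55 under vehicle), and the differences in SKNAS, NB1691 and SKNBE2 were 0.40, 0.12 and 0.19. The mean of 0.54 ± 0.24 did not pass (limma, adjusted p = 0.307), and without SKNAS/shHIF1a it was 0.24. The 2 other KLF2 probe sets were below the filter level and gave means of -0.18 and 0.00. Of 6 endothelial markers, 3 were above the filter level in SKNAS/shHIF1a under ciclopirox and 3 under vehicle, with a summed level of 24.7 and 26.6, against 16.96 to 20.4 in the other 3 lines. In SKNAS/shHIF1a under ciclopirox and vehicle, TEK was at 6.97 and 6.78, PECAM1 at 5.46 and 3.97 and EMCN at 3.77 and 6.74. In contrast, CDH5, which defines endothelium, was at 2.95 and 3.11 there and KDR at 2.76 and 2.92. VWF went the other way, at 2.82 and 3.08 in SKNAS/shHIF1a against 6.15 and 4.94 in NB1691. The part of these markers in the KLF2 value was not tested.

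IER3, a stress-induced protein that affects cell survival, had the widest range among the lines. Its levels were 12.04 in SKNAS, 9.71 in NB1691, 4.40 in SKNBE2 and 12.43 in SKNAS/shHIF1a under ciclopirox, against 10.96, 9.10, 4.92 and 11.04 under vehicle. SKNBE2 was far below the others under both treatments. The differences were 1.08, 0.61, -0.52 and 1.39, with a mean of 0.64 ± 0.31 (SE, n = 4 lines, limma, adjusted p = 0.336). The mean was 1.03 without SKNBE2 and 0.39 without SKNAS/shHIF1a. Under both treatments the SKNAS-derived lines differed from each other by less than the spread of 0.63, and the gaps to NB1691 and on to SKNBE2 were larger than it.

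IER2, a nuclear protein of the immediate early response, had uniformly strong signals, at 10.92 in SKNAS, 9.58 in NB1691, 10.14 in SKNBE2 and 11.29 in SKNAS/shHIF1a under ciclopirox, against 10.32, 9.83, 10.03 and 10.52 under vehicle. Its differences were 0.60, -0.25, 0.11 and 0.77, and their mean of 0.31 ± 0.20 was the smallest of the 8 (SE, n = 4 lines, limma, adjusted p = 0.45). That mean was 0.15 without SKNAS/shHIF1a and 0.49 without NB1691. Under vehicle no neighbouring lines differed by more than the spread of 0.40.

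DUSP1, which dephosphorylates p38, JNK and ERK in the nucleus, stood at 8.72 in SKNAS, 8.34 in NB1691, 8.23 in SKNBE2 and 9.03 in SKNAS/shHIF1a under ciclopirox, against 7.31, 8.02, 8.02 and 7.59 under vehicle. Every ciclopirox array was above every vehicle array. The differences were 1.42 and 1.44 in SKNAS and SKNAS/shHIF1a, against 0.32 and 0.21 in NB1691 and SKNBE2, and the mean had an unadjusted p of 0.0179 (limma, adjusted p = 0.21). The order of the lines turned: the SKNAS-derived lines were lowest under vehicle and highest under ciclopirox, with no gap between neighbours beyond the spread of 0.52. A further DUSP1 probe set lay between 2.38 and 2.76 on all arrays and gave no usable signal.

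DUSP1 lies on chromosome 5 at 172768096 to 172771195 (GRCh38.p14).
DUSP1, chr5:172771146-172771445, minus strand: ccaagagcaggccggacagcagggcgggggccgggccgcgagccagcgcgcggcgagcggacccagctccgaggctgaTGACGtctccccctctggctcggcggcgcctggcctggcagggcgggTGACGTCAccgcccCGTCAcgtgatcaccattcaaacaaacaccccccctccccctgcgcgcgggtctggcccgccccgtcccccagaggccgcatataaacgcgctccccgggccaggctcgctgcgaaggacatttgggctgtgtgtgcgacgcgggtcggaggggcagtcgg
Its window held 4 CRE half-sites, 2 of which overlap to form the full palindrome TGACGTCA at -125, and 0 CArG boxes. The full palindrome was found in 1.85% of all promoter windows, and 1.4% held at least 3 half-sites.

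**Figure D2:**
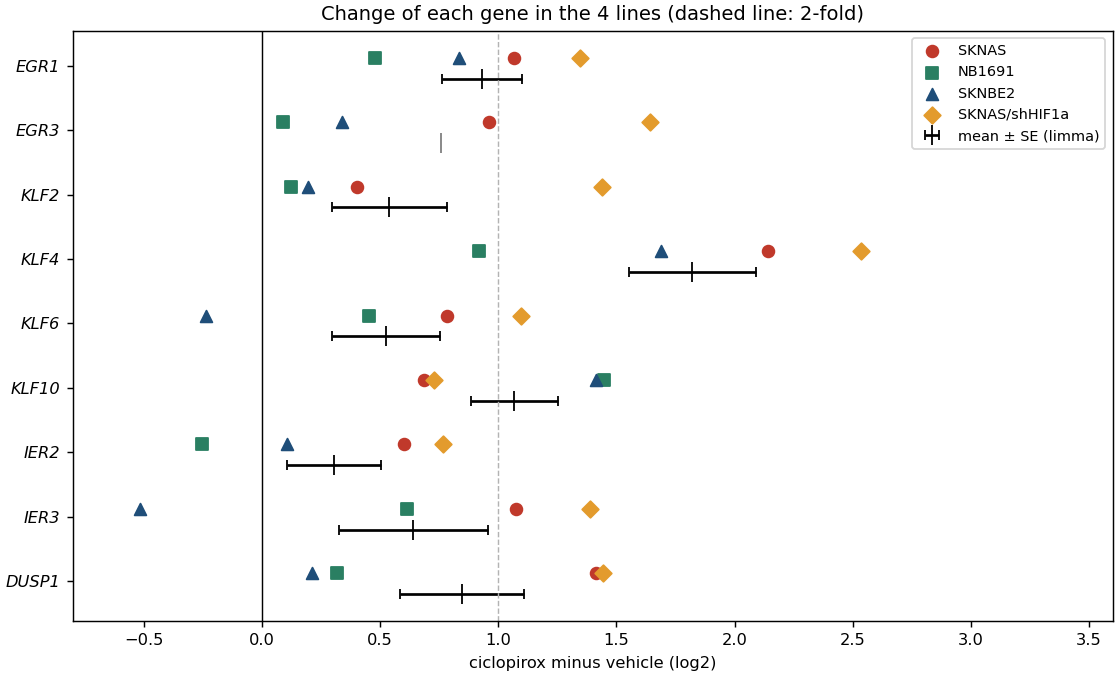
Ciclopirox minus vehicle difference of each gene (log2) in the 4 lines, with the mean and its SE from limma (n = 4 lines) below the points, and the mean alone in grey for EGR3, which was not tested. The SKNAS and SKNAS/shHIF1a points lie right of the NB1691 and SKNBE2 points for every gene except KLF10, where they lie left of them.

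Within single lines, where 1 array per treatment allows no test, 4 of the 8 genes were at least 2-fold higher in SKNAS (background 3.38%), 1 in NB1691 (KLF10, background 3.31%), 2 in SKNBE2 (KLF4 and KLF10, background 2.11%) and 6 in SKNAS/shHIF1a (background 5.52%). None of the 8 was at least 2-fold lower in any line, against 1.62%, 5.12%, 1.25% and 4.31% of genes in the same order. EGR1, KLF2, KLF4, KLF10 and DUSP1 were higher in all 4 lines, 5 of 8 against 11.8% of genes. No gene of the 8 was at least 2-fold higher in all 4 lines, as 0.124% of genes were.

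The next comparison asked whether the response differed by line origin, with SKNAS and SKNAS/shHIF1a set against NB1691 and SKNBE2. Both SKNAS-derived differences were above both others for EGR1, KLF2, KLF4, KLF6, IER2, IER3 and DUSP1, 7 of 8 genes against a background of 21.1%, and both were below both others for KLF10, 1 of 8 against 22.5%. DUSP1 differed by 1.16 ± 0.23 (SE, mean differences of 1.43 and 0.26), IER3 by 1.18 ± 0.42 (1.23 and 0.05) and KLF4 by 1.04 ± 0.35 (2.34 and 1.30). KLF4 was below the filter level under vehicle in NB1691 and SKNBE2, so its 1.30 there may be too small and its 1.04 too large. With 1 line left out, the IER3 value became 0.62 without SKNBE2 and the KLF4 value 0.65 without NB1691. KLF10 differed by -0.72 ± 0.22 (0.71 in the SKNAS-derived lines and 1.43 in the others).

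The difference between origins did not pass for any of the 8 genes (limma on the 4 differences, 0 at an adjusted p under 0.05, lowest for DUSP1 at 0.22), against a background of 0.0344%. At an unadjusted p under 0.05, 5 had a larger difference in the SKNAS-derived lines (KLF4, KLF6, IER2, IER3 and DUSP1) against a background of 6.35%, and 1 a smaller one (KLF10) against 4.97%. With lines left out 1 at a time, the 5 became 1 without SKNAS/shHIF1a and 3 without SKNAS, NB1691 or SKNBE2, and the 1 became 0 without SKNAS or without SKNAS/shHIF1a. Leaving out a line leaves 1 line in an origin, whose spread is then taken to equal that between the other 2. SKNAS and SKNAS/shHIF1a are not independent of each other. The 6 fibroblast markers summed to 49.1 to 53.3 in the SKNAS-derived lines and 34.9 to 43.0 in the others, with THY1 the other way (6.16 to 7.92 and 9.04 to 9.55). PDGFRB (5.39 to 6.45 and 4.27 to 6.80) and COL1A2 (3.13 to 4.58 and 3.09 to 3.52) overlapped between origins, so the gap lay in COL1A1, DCN and LUM. The 5 leukocyte markers summed to 20.03 to 25.1 and 17.5 to 19.1, a gap carried by PTPRC. The part of either in the response was not tested.

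**Figure D3:**
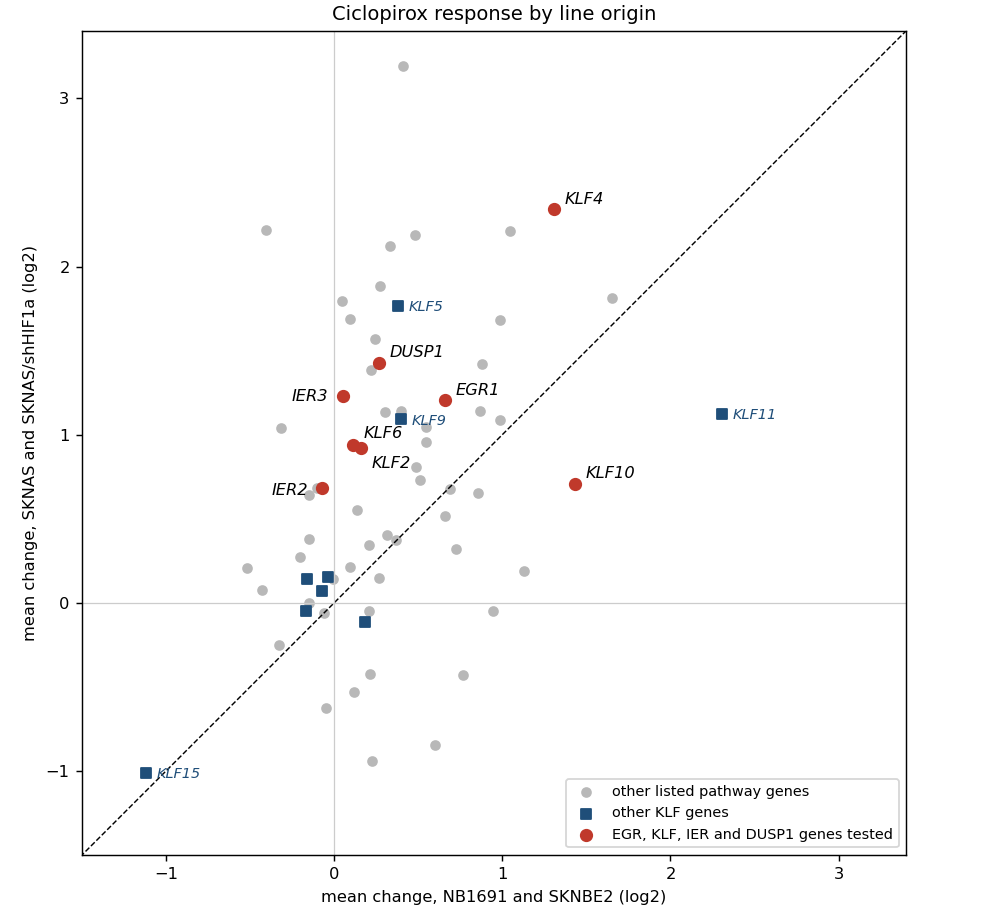
Mean ciclopirox minus vehicle difference (log2) in SKNAS and SKNAS/shHIF1a (y axis) against that in NB1691 and SKNBE2 (x axis) for the 8 tested genes (red), the other KLF genes (blue) and the remaining listed pathway genes (grey). KLF10 and KLF11 lie below the dashed line of equal response, and the other 7 red points lie above it.

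Levels under vehicle also differed by origin. KLF4 was higher in the SKNAS-derived lines by 3.07 ± 0.28 (SE, 2 arrays per origin), with mean levels of 6.15 there and 3.07 in NB1691 and SKNBE2, and it was the 1 gene of 8 that passed (limma, adjusted p = 0.0412, background 1.67%). Both NB1691 and SKNBE2 were below the filter level for KLF4, and with them set to that level the difference is at least 7.66-fold (log2 2.94) for this probe set. The dimmer KLF4 probe set had 3.34 and 3.45 in SKNAS and SKNAS/shHIF1a under vehicle, against 2.82 and 2.97 in NB1691 and SKNBE2. With the mean of the KLF4 probe sets the log2 difference was 1.79, so its size depends on the probe set. At an unadjusted p under 0.05, 3 were higher (EGR1, KLF4 and KLF10, background 10.8%) and 0 lower (background 9.56%), and the 3 became 1 without SKNAS or without SKNAS/shHIF1a. The KLF4 call ended without SKNAS (adjusted p = 0.274), without NB1691 (0.0556), without SKNAS/shHIF1a (0.242) and with the mean of the KLF4 probe sets (0.05). EGR1 averaged 7.31 in the SKNAS-derived lines and 4.76 in the others (adjusted p = 0.199). IER3 had 10.96 and 11.04 in SKNAS and SKNAS/shHIF1a, against 9.10 and 4.92 in NB1691 and SKNBE2 (difference 3.99 ± 1.54, adjusted p = 0.274). Without SKNBE2, EGR1 and IER3 were past the threshold (adjusted p = 0.0388 and 0.0338), as was IER3 without NB1691 (0.0329). These fits set 1 line against SKNAS and its own derivative, which alone give the spread, so they do not show a difference between origins.

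The HIF1A knockdown line was compared with its parent over both treatments, 2 arrays per line. None of the 8 genes passed (limma, 0 at an adjusted p under 0.05, and 0 at an unadjusted p under 0.05), against a background of 1.58% at the adjusted threshold and of 5.98% higher and 6.08% lower at the unadjusted one. KLF2 had the largest difference, 0.53 ± 0.34 (SE), from levels of 4.27 in SKNAS/shHIF1a and 3.74 in SKNAS, and EGR1 the largest negative one, -0.47 ± 0.24 (7.68 and 8.15). The ciclopirox minus vehicle difference was larger in SKNAS/shHIF1a than in SKNAS for all 8 tested genes, against a background of 50.4%, by 0.03 for DUSP1 to 1.04 for KLF2. This excess of the knockdown line was not tested, as each line had 1 array per treatment. Over all genes its differences were also wider, with 5.52% at least 2-fold higher and 4.31% lower, against 3.38% and 1.62% in SKNAS. Placed among all genes tested, only KLF2 and KLF6 of the 8 stood higher in SKNAS/shHIF1a than in SKNAS. For KLF6 the gap was narrow, with 94.96% of genes exceeded in SKNAS and 95.19% in SKNAS/shHIF1a. EGR3, which did not pass the filter, also stood higher (96.40% and 97.51%). The rest of the 8 did not. KLF4, for example, exceeded 99.41% of genes in SKNAS and 99.09% in SKNAS/shHIF1a, and DUSP1 98.22% and 96.97%.

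Related genes outside the 10 were read from lists of the same pathways. Of 9 other KLF genes tested, 0 passed in limma over all genes, and at an unadjusted p under 0.05, 3 were higher and 1 lower. KLF11, the close relative of KLF10 and likewise a TGF-beta-inducible repressor, had 0.84 in SKNAS, 2.11 in NB1691, 2.50 in SKNBE2 and 1.41 in SKNAS/shHIF1a, so its largest values were in NB1691 and SKNBE2 as for KLF10. KLF5 had 1.46, 0.65, 0.11 and 2.07, KLF9 0.79, 0.11, 0.69 and 1.39, and KLF15, known for its role in glucocorticoid and metabolic responses, -1.53, -1.40, -0.85 and -0.50. The median of these 9 was 0.03.

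The repressor NAB2, which EGR1 induces and which then limits EGR1, had differences of 0.54, 0.95, 0.42 and 0.82 in SKNAS, NB1691, SKNBE2 and SKNAS/shHIF1a, and NAB1 0.51, -0.07, -0.13 and 0.86. Of 8 other MAP kinase phosphatases, 4 were higher at an unadjusted p under 0.05 and 0 lower (0 passed in limma over all genes). They were DUSP5, a nuclear ERK phosphatase, at 1.63 ± 0.27, DUSP10 at 1.15 ± 0.19, DUSP8 at 1.00 ± 0.22 and DUSP4 at 0.75 ± 0.16 (SE, n = 4 lines). DUSP6, the cytoplasmic ERK phosphatase, had the smallest mean of the 8 in size, -0.08 ± 0.12, with values of 0.15, -0.27, -0.03 and -0.15. The means of DUSP7, DUSP16 and DUSP9 were -0.34, 0.28 and -0.21. The part of ERK activity in these values was not tested.

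Among 8 ERK feedback genes, 0 passed at an unadjusted p under 0.05 in either direction (limma, and 0 adjusted), with a median of 0.07 and the largest values for SPRY4 (0.45), SPRY1 (-0.36), SPRED2 (-0.29) and ETV5 (-0.18). These means cover differences of opposite sign between lines. In SKNAS, NB1691, SKNBE2 and SKNAS/shHIF1a, SPRY4 had -0.09, 0.82, 1.07 and -0.01 and SPRY1 -0.71, 0.10, 0.35 and -1.18. In the same order SPRED2 had -0.05, -0.75, 0.09 and -0.45 and ETV5 0.35, -1.29, 0.42 and -0.20. Of SRF and its 5 cofactors, 2 were higher at an unadjusted p under 0.05 (limma), with means of 0.59 for ELK4 and 0.37 for ELK1. SRF itself had 0.08 and MRTFA 0.21. Of 25 other immediate early genes, 17 were higher and 0 lower at an unadjusted p under 0.05 (0 adjusted), with a median of 0.80. GADD45B had 1.80, PPP1R15A 1.73, FOS 1.34 and NR4A3 1.33. The medians of these 25 genes were 1.10 in SKNAS, 0.36 in NB1691, 0.19 in SKNBE2 and 1.23 in SKNAS/shHIF1a. For the 8 tested EGR, KLF, IER and DUSP1 genes they were 0.92, 0.47, 0.20 and 1.37 in the same order. Larger differences in the SKNAS-derived lines were thus not particular to those 8 genes. IER5 had 0.52 and IER5L -0.06. All these counts stand against the background of 7.67% higher and 10.2% lower, and no list was tested as a set. The lists were chosen with earlier results of these data known, so their counts are not independent of these values.

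**Figure D4:**
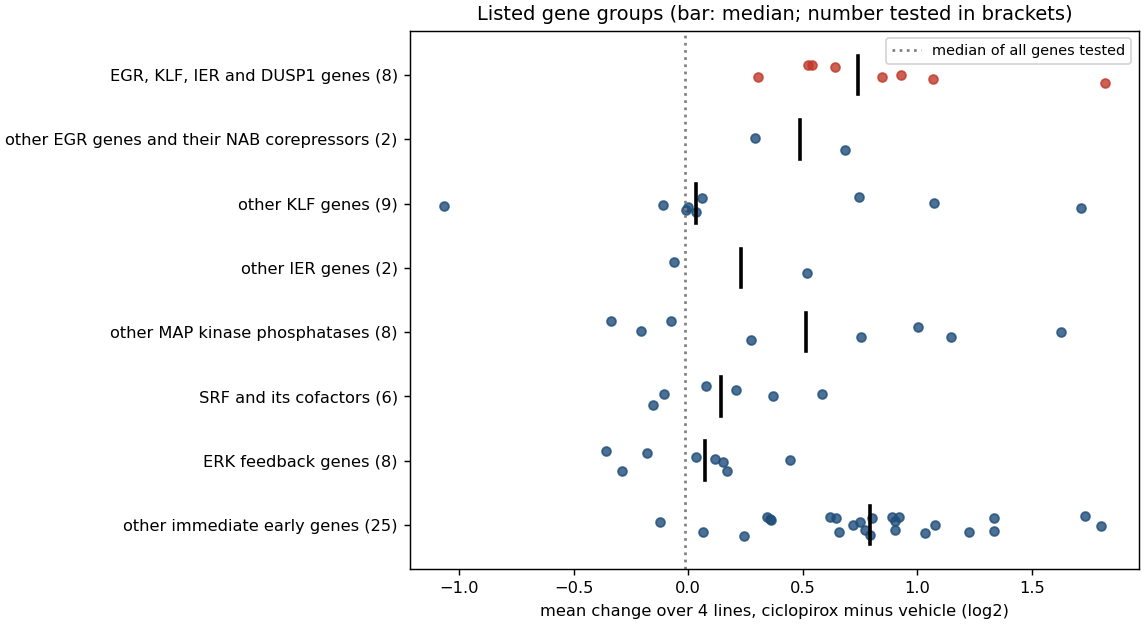
Mean ciclopirox minus vehicle difference over the 4 lines (log2) for each tested gene of the listed groups, with a black bar at the group median and a dotted line at the median of all genes tested (-0.01). Medians are 0.74 for the EGR, KLF, IER and DUSP1 genes, 0.80 for the other immediate early genes and 0.07 for the ERK feedback genes.

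For each gene, the tested genes with the most similar level over the 8 arrays were found by Pearson's r, as a description over arrays that share lines. EGR1 was most like MPG (r = 0.995) and PLOD3 (0.985), KLF4 most like RNF149 (0.994) and VCL (0.986), and IER3 most like TMSB10 and C1orf52 (0.995 each). KLF10 was most like CCDC150 (0.981) and CAMK2D (0.964), DUSP1 most like JUN (0.962) and PLXNA3 (0.961), and EGR3 most like NR4A3 (0.978) and TYK2 (0.969). KLF2 was most like DGKD (0.990) and MAPK11 (0.975), KLF6 most like PRG2 (0.980) and EHD1 (0.969), and IER2 most like BBIP1 (0.986) and NINJ1 (0.983). Each search ran over 14509 genes and 8 arrays.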

How the data were processed

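The values are deposited log2 signals. The submitters' processing notes name RMA, whose version is not given in the sources used here. RMA quantile-normalizes arrays, so a change common to all transcripts would not be seen. Of 54715 probe sets, 40920 carried exactly 1 gene symbol in the platform annotation, 864 carried several, 102 were controls and 12829 were unnamed here. Each gene took its brightest probe set, and genes whose mean log2 level reached 3.21, below which 40 percent of probe sets lay, were tested with limma 3.58.1 in R 4.3.3, two-sided, with Benjamini-Hochberg adjustment over 14517 genes and a threshold of 0.05. Cell line was the block for treatment, since both arrays of a line come from that line (Pearson r of line deviations across genes 0.82 to 0.90). Line origin was fitted on the 4 differences and on the 4 vehicle arrays, and the knockdown on all 8 arrays with treatment as a term. The fits were tested on simulated data. Genes named were all 10 listed, up to 4 per pathway list by size of change, the 2 most similar genes per member and HIF1A. DUSP6, DUSP7, DUSP9, DUSP16, SRF and the markers named were added after their values were seen. Members and lists were chosen with earlier results of these data known. Promoters came from RefSeq (GRCh38.p14). Alternatives were the block, left-out lines, averaging SKNAS with its derivative, filters, probe set choice, scaling, intensity trend, array weights and threshold.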

Additional observations from a re-analysis of the deposited data

How the results depend on the processing

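Every alternative kept the direction of the ciclopirox difference for all 8 tested genes (125 values), with adjusted p-values of 0.0712 to 1 in limma, so that no gene passed at 0.05. Probe sets of these genes below the filter level were not fitted alone. Their mean differences were -0.18 and 0.00 for KLF2, 0.15 for KLF6 and -0.08 for DUSP1. The count of genes higher at an unadjusted p under 0.05, 4 as reported, was 8 with array weights, 2 without the cell line as a replicate block and 3 to 6 with lines left out. It was 3 with SKNAS averaged with its derivative. KLF4 ranged from 0.78 (its dimmer probe set) to 2.12, KLF10 from 0.92 to 1.20, EGR1 from 0.79 to 1.08 and DUSP1 from 0.38 to 1.07. For the difference by origin, which kept its direction in all 87 values, 1 to 3 genes were higher and 0 to 1 lower with lines left out. For the knockdown line against its parent, 1 gene was lower at an unadjusted p under 0.05 with only the arrays of both lines. For origin under vehicle, 0 genes passed with the mean of the probe sets and 0 to 3 with lines left out, 1 to 4 were higher at an unadjusted p under 0.05 with lines left out, and 1 was lower without the filter (9 genes tested). There KLF6, 0.22 as reported, ranged from -0.0060 (without SKNAS) to 0.44 with lines left out, and KLF2, -0.04 as reported, from -0.23 to 0.16 (without SKNBE2). On the ciclopirox arrays KLF2 was 0.73 and DUSP1 0.59 (against -0.57 under vehicle), an alternative that by construction uses the treated arrays. The cause of the other changes was not tested. Levels near the filter, as for EGR3, KLF2 and KLF4 in NB1691 and SKNBE2, limit what a small difference can show.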

Other observations

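The lines lay closer together in KLF10 under ciclopirox. Its SD over the 4 lines was 0.13 under ciclopirox and 0.51 under vehicle, and 39.01% of all genes tested had a smaller SD under ciclopirox. For the other 7 tested genes the SD was larger under ciclopirox, from 0.37 against 0.35 for DUSP1 to 3.70 against 2.87 for IER3. These values were chosen after they were seen and carry no test. No level or difference of the 9 genes stood apart in its group of 4 by Dixon's criterion (27 groups checked).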
